A study of Mus musculus with 24 samples.

Results

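The BCL2 family genes followed here are 10 genes of the mitochondrial pathway of apoptosis, Bcl2, Bcl2l1, Mcl1, Bcl2a1b, Bcl2a1d, Bcl2l11, Bax, Bbc3, Pmaip1 and Bad, out of 54446 genes in the count table. They were chosen by name, through the gene symbol of each Ensembl identifier, by a rule that used no measured value, although earlier results of these data were known when the 10 were picked. All 10 passed the filter on low counts, which kept 15325 genes for testing. Messenger RNA was sequenced from splenic CD4+ T cells of 6 mice on the C57BL6 background. Mice 1, 3 and 4 of one set carry the label WT (wild type), and mice 1, 2 and 4 of another the label Aim2-/-, in which the gene of the cytosolic DNA sensor AIM2 is knocked out. Each mouse gave 1 unstimulated library (0 h) and 1 at each of 3, 6 and 24 h of culture in RP10 medium under anti-CD3/CD28, a stimulus to the T cell receptor together with its costimulatory receptor CD28. The spread behind the p-values is pooled over the mice of all 8 groups, and without a block the 4 libraries of a mouse are treated as independent. The 24 libraries form 8 groups of 3 mice, and the time course asks how the genes respond to stimulation and whether the response depends on Aim2.

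Proteins of the BCL2 family decide whether the outer membrane of the mitochondrion stays closed. BCL2, BCL-XL (Bcl2l1), MCL1 and the A1 proteins (Bcl2a1b, Bcl2a1d) keep it closed and support survival, while BAX, once activated, forms the pores that release cytochrome c. BH3-only proteins sense stress or loss of growth signals and act on the other members: BIM (Bcl2l11), PUMA (Bbc3), NOXA (Pmaip1) and BAD. In T cells, BCL2 and MCL1 are known for the survival of resting cells, BCL-XL is known as a gene induced by CD28 costimulation, and BIM is known for the death of T cells at the end of a response.

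Total counts lay between 19715161 and 21627018 per library, so that 3 counts, the floor of detection for counting error only, correspond to 0.129 to 0.155 CPM (counts scaled to a common library size, with TMM factors). All values of the 10 genes lay above this floor. Aim2, the targeted gene, was at 5.28 to 20.1 CPM in the 12 Aim2-/- libraries. In the mice labelled WT 3 and WT 4 it stood higher at every time, at 32.5 to 75.0 CPM, whereas in the mouse labelled WT 1 it was 21.5, 17.0, 11.5 and 5.57 CPM at 0, 3, 6 and 24 h, within or close to the Aim2-/- values of the same times. The deleted part of the gene is not given in the sources used here. Since the Aim2 level of this mouse goes against its label, the group is called WT-labelled below, and each call of the 10 genes between the genotypes is also given without it. Genotype values of other genes, and some of the 10 genes that were not called, include this mouse. Summed CD4 T cell markers (7 of 7 detected in each library) were 4131 to 4443 CPM at 0 h over both genotypes, and CD8 T cell markers 8.12 to 11.4 CPM. Markers of several other cells were higher in the Aim2-/- libraries, without overlap at 0 h. At that time the 5 basophil and mast cell markers summed to 7.20 to 9.97 CPM in WT-labelled and 53.3 to 102 CPM in Aim2-/- libraries, the 7 neutrophil markers to 25.5 to 27.1 against 104 to 289 CPM (up to 3 of the 7 at 0 in a WT-labelled library, none in Aim2-/-), the 6 myeloid markers to 34.4 to 55.7 against 102 to 326 CPM, the 6 B cell markers to 8.36 to 10.2 against 16.2 to 42.3 CPM, and the 5 plasma cell markers to 151 to 1032 against 1716 to 2945 CPM. Several sums were also lower at 24 h than at 0 h. At 24 h the neutrophil sum was 3.13 to 3.75 CPM in WT-labelled and 9.16 to 83.0 CPM in Aim2-/- cells, the plasma cell sum 21.2 to 133 and 175 to 622 CPM, the NK cell sum 1.33 to 2.93 and 0.705 to 3.91 CPM, and the CD4 T cell sum 2650.1 to 2773 and 2821 to 2860 CPM. Their part in the changes with stimulation was not tested. At 0 h the ranges overlapped for 3 NK cell markers (7.55 to 12.8 against 9.25 to 18.8 CPM) and 5 erythroid markers (7.40 to 71.5 against 20.6 to 332 CPM). In bulk RNA, fewer cells of a type and less RNA per cell cannot be told apart.

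Sequences are shown where they bear on how the values can be read, beginning with the A1 paralogs on chromosome 9, Bcl2a1b (GRCm38, chr9:89199209-89207827, plus strand) and Bcl2a1d (chr9:88723285-88731914, minus strand). Their coding sequences, 516 bases each, are 98.8% identical and differ at 6 positions, counted from the A of the start codon with the Bcl2a1b base first: G4T, T48C, A94C, G312A, C381G and T490A. The opening 120 bases of each are shown, with such positions in capitals. A read within the coding sequence can tell Bcl2a1b from Bcl2a1d only where it spans such a position. Bcl2a1a and Gm29094 share sequence with both.
Bcl2a1b: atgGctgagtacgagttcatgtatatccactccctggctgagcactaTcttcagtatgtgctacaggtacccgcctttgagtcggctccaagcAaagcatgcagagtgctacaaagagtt
Bcl2a1d: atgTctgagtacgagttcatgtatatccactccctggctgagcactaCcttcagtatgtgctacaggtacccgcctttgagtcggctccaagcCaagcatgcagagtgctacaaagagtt
Of all stretches of 51 bases in their transcripts, 21.3% for Bcl2a1b and 21.0% for Bcl2a1d occur in no other annotated gene, against 91.6% for Bax, which shares sequence with Gm45808, a gene listed at 0 in every library, and 99.9% to 100% for the other 7 genes. Values of the A1 genes are therefore uncertain and are given beside the sum of all Bcl2a1 rows. In the same build the other genes lie at chr1:106538178-106714274 (Bcl2, minus strand), chr2:152780668-152831728 (Bcl2l1, minus), chr2:128126038-128162547 (Bcl2l11, plus), chr3:95658788-95663176 (Mcl1, plus), chr7:45461697-45466898 (Bax, minus), chr7:16308393-16318205 (Bbc3, plus) and chr19:6941861-6951899 (Bad, plus).

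Promoters are shown for 3 genes that moved together or against each other over the time course, with 1 window each that held a FOXO or ETS match. The other windows of these 3 genes held neither. RefSeq promoter windows (GRCm38.p6, mostly upstream of a transcript start and reaching a little past it) were matched for 9 of the 10 genes, with 15 windows in all, and for Pmaip1 none was used. They were searched on both strands for TGTTTAC, the core bound by FOXO factors, CACGTG (E-box), CCGGAAGT (ETS), TTC and GAA with 3 bases between them (STAT), TGACTCA or TGAGTCA (AP-1), and the NF-kB motif. A FOXO match occurs in 3.65% of 32851 mouse promoter windows, and among the 10 genes in 1 window each of Bcl2l11 (chr2:128125788-128126087, plus strand) and Bbc3 (chr7:16310011-16310310, plus strand, at a start inside the annotated gene). For Bcl2l1 the window at the 5′ end of the gene (chr2:152831679-152831978, minus strand) holds an ETS match, as do 3.89% of windows. Matches stand in capitals, in lower case the rest.
Bcl2l11: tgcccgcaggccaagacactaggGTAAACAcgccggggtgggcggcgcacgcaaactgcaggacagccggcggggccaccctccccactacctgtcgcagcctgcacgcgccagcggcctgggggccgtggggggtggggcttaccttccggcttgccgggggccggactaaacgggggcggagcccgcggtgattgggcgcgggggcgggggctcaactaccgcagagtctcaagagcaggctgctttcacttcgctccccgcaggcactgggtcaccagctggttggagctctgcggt
Bbc3: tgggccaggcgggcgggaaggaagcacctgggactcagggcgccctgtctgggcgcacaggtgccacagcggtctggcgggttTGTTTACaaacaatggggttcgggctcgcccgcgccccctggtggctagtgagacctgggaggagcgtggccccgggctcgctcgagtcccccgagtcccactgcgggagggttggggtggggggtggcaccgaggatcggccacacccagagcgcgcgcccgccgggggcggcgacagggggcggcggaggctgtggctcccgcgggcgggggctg
Bcl2l1: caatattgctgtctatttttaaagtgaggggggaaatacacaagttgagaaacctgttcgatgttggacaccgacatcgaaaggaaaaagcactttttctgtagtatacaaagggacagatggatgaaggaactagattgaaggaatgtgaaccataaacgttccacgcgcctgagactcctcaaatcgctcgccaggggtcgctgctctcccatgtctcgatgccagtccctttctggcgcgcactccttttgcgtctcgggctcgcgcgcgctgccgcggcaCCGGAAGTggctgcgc
Other windows held NF-kB matches (4.51% of all windows, Bcl2l1 and Bbc3) or E-boxes (7.15%, Bbc3 and Bax). No STAT (8.3%) or AP-1 (5.2%) match was found. The windows of Bcl2, Mcl1, Bad, Bcl2a1b and Bcl2a1d held none of these motifs. A match of letters is a description of the sequence and not a measured binding site.

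After stimulation the family split into genes that were highest late, genes that were highest early, and genes that fell. Bcl2l1 and Bad were highest at 24 h, Bcl2, Mcl1 and Bax peaked at 3 or 6 h, and Bcl2l11, Bbc3 and Pmaip1 were lowest at 24 h in both genotypes. Calls below mean a Benjamini-Hochberg adjusted p under 0.05 in edgeR's quasi-likelihood test over the 15325 genes. In WT-labelled cells, 6 of the 10 genes were called at 3 h against 0 h (4 higher, 2 lower), where 32.6% of all tested genes were called. At 6 h 8 were called (5 higher, 3 lower, background 51.1%), and at 24 h also 8 (3 higher, 5 lower, background 71.4%). Between 3 and 6 h 2 were called, both higher (Bcl2l1 and Bax, background 25.7%), and between 6 and 24 h all 10, 2 higher and 8 lower (background 57.6%). Among Aim2-/- libraries there were 6 calls at 3 h (4 higher, 2 lower, background 30.7%), 7 at 6 h (5 higher, 2 lower, background 51.2%) and 7 at 24 h (3 higher, 4 lower, background 70.3%). From 3 to 6 h 3 were called (Bcl2l1 and Bax higher, Bcl2l11 lower, background 23.3%), and from 6 to 24 h 9 (2 higher, 7 lower, background 54.3%). These shares are to be read against a background in which a large part of all genes was called. The median log2 change of the 10 genes in WT-labelled cells was 0.42, 0.19 and -0.16 at 3, 6 and 24 h, beside 0.02, 0.02 and -0.01 over all tested genes, and in Aim2-/- cells it was 0.28, 0.41 and -0.20 beside 0.02, 0.08 and 0.03. When libraries were scaled by their totals alone, the median of all genes moved by more than 0.1 on the log2 scale in 3 of 17 comparisons, at most by 0.12 at 6 h against 0 h in Aim2-/- cells, and no sign of a called change turned.

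**Figure D1:**
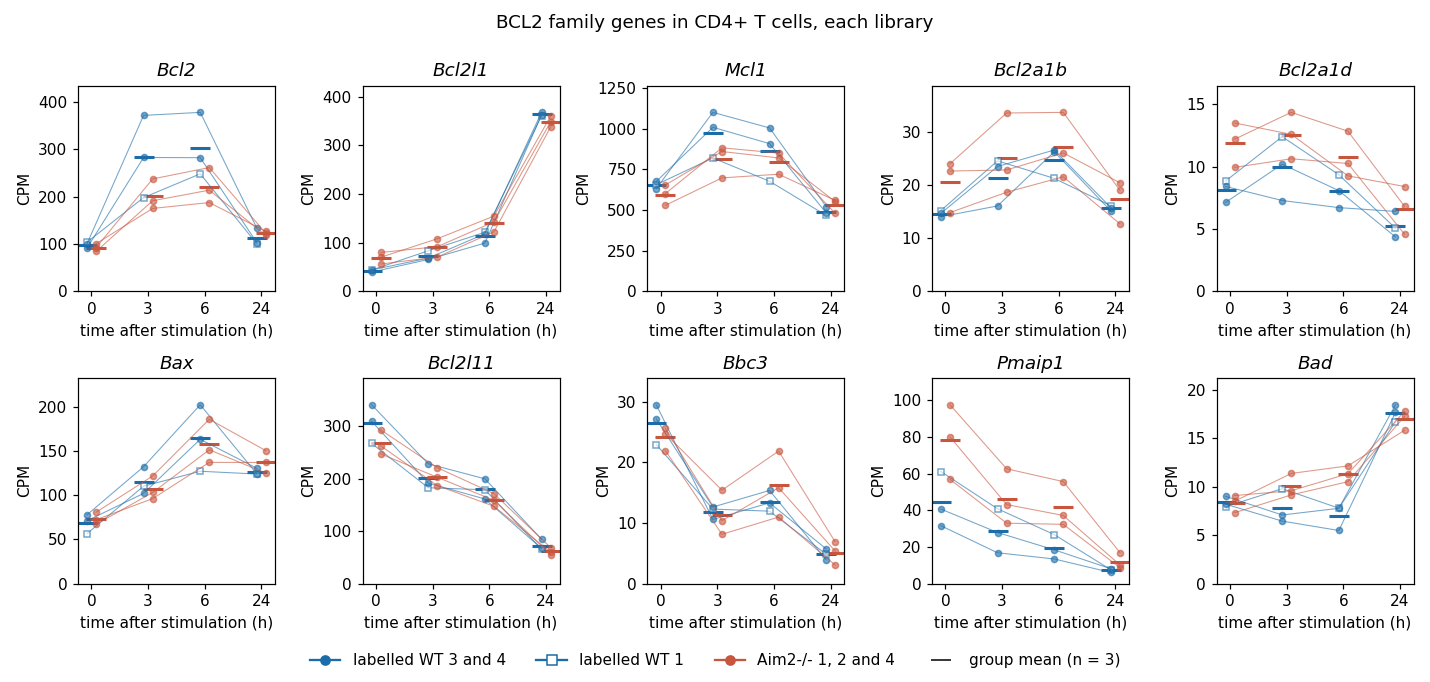
Level of each of the 10 genes in every library (CPM, linear axis from 0) against time after stimulation (h, evenly spaced), with 1 line for each mouse and a bar for the mean of 3 mice. Bcl2l1 climbs to 338 to 368 CPM at 24 h in all 6 mice, Bcl2 peaks at 3 and 6 h, and Bcl2l11 falls from 248 to 341 CPM to 55.6 to 85.1 CPM.

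Bcl2l1, which encodes BCL-XL, showed the largest rise of the 10 genes, and it rose at every step. Values are listed as CPM of mice 1, 3 and 4 for WT-labelled and of mice 1, 2 and 4 for Aim2-/- cells. In WT-labelled cells the level was 43.9, 39.7 and 44.0 at 0 h, 83.5, 65.6 and 68.6 at 3 h, 122, 99.3 and 118 at 6 h and 361, 363 and 368 at 24 h. In Aim2-/- cells it was 80.0, 56.3 and 70.2 at 0 h, 92.0, 70.7 and 108 at 3 h, 143, 122 and 155 at 6 h and 348, 338 and 360.1 at 24 h. The ranges of 0, 3, 6 and 24 h did not overlap in WT-labelled cells, in Aim2-/- cells those of 0 and 3 h did, and all 6 mice rose at each step. The log2 change from 0 h to 3, 6 and 24 h was 0.77 ± 0.14, 1.41 ± 0.14 and 3.10 ± 0.15 in WT-labelled cells (SE of the fit, n = 3 mice, edgeR adjusted p = 0.000215, 4.55e-08 and 2.22e-13). Aim2-/- cells changed by 0.39 ± 0.14, 1.02 ± 0.14 and 2.34 ± 0.14 (adjusted p = 0.0368, 3.38e-06 and 9.92e-12). The call at 3 h in Aim2-/- cells was lost without Aim2-/- mouse 4 (log2 0.25, adjusted p = 0.318) and without WT-labelled mouse 4 (log2 0.39, adjusted p = 0.0654). The step from 6 to 24 h was 1.69 ± 0.14 in WT-labelled and 1.32 ± 0.14 in Aim2-/- cells (adjusted p = 3.26e-09 and 1.36e-07). From 3 to 6 h it was 0.64 ± 0.14 and 0.63 ± 0.14 (adjusted p = 0.00179 and 0.00249), and the former was lost without WT-labelled mouse 4 (adjusted p = 0.0562).

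Bcl2, the founding pro-survival gene of the family, rose early and came back. The level in WT-labelled cells was 104, 91.2 and 100.1 CPM at 0 h, 198, 283 and 372 at 3 h, 248, 282 and 378 at 6 h and 100.3, 103 and 133 at 24 h. The Aim2-/- values were 101, 92.6 and 84.3 at 0 h, 175, 238 and 191 at 3 h, 188, 262 and 214 at 6 h and 127, 122 and 118 at 24 h. The 3 h and 6 h ranges lay above the 0 h and 24 h ranges in both genotypes, and at 3 and 6 h WT-labelled mouse 4 was the highest of the 6 mice and Aim2-/- mouse 1 the lowest. The log2 change was 1.53 ± 0.19 at 3 h and 1.62 ± 0.19 at 6 h in WT-labelled cells (adjusted p = 2.85e-06 and 3.86e-07), and 1.12 ± 0.19 and 1.26 ± 0.19 in Aim2-/- cells (adjusted p = 0.000122 and 1.18e-05). From 6 to 24 h the change was -1.43 ± 0.19 and -0.85 ± 0.19 (adjusted p = 1.8e-06 and 0.000675). At 24 h against 0 h it was 0.19 ± 0.19 in WT-labelled cells (adjusted p = 0.373) and 0.40 ± 0.19 in Aim2-/- cells (adjusted p = 0.0606). With mouse as a block the latter passed the threshold, at 0.40 ± 0.13 (adjusted p = 0.00785).

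Mcl1, whose protein turns over within hours, was the highest of the 10 genes per kilobase of exon at every time. In WT-labelled cells it was at 655, 675 and 631 CPM at 0 h, 819, 1008 and 1099 at 3 h, 676, 907 and 1004 at 6 h and 467, 483 and 521 at 24 h. The Aim2-/- values were 528, 600.3 and 653 at 0 h, 697, 882 and 859 at 3 h, 719.5, 849 and 819.6 at 6 h and 559, 479 and 551 at 24 h. Every mouse stood higher at 3 h than at 0 h, and 5 of 6 stood lower at 24 h than at 0 h. The log2 change at 3, 6 and 24 h was 0.58 ± 0.13, 0.40 ± 0.13 and -0.42 ± 0.13 in WT-labelled cells (adjusted p = 0.00203, 0.0163 and 0.00889). For Aim2-/- cells the changes at 3 and 6 h were 0.45 ± 0.13 and 0.42 ± 0.13 (adjusted p = 0.0135 and 0.0119). The change at 24 h was not called there (-0.17 ± 0.13, adjusted p = 0.274). All 6 mice stood above their 0 h level at 3 and 6 h, and on leaving out single mice each called change kept its direction while some calls were lost. Without WT-labelled mouse 4 the calls in WT-labelled cells at 3 and 6 h were lost (log2 0.43 and 0.23, adjusted p = 0.0726 and 0.296), without WT-labelled mouse 3 those at 6 and 24 h (log2 0.34 and -0.44, adjusted p = 0.165 and 0.0517) and that of Aim2-/- cells at 6 h (log2 0.38, 0.0505), without Aim2-/- mouse 2 those of Aim2-/- cells at 3 and 6 h (log2 0.40 and 0.38, 0.103 and 0.0761), and without Aim2-/- mouse 4 that at 3 h (log2 0.48, 0.0683). The fall from 6 to 24 h, -0.82 ± 0.13 and -0.59 ± 0.13, kept its call under each alternative (adjusted p = 2.82e-05 and 0.000933).

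The A1 genes, known as NF-kB targets in lymphocytes and myeloid cells, had changes of under 1 on the log2 scale at each time. Bcl2a1b in WT-labelled cells was at 15.2, 14.7 and 14.1 CPM at 0 h, 24.6, 23.6 and 16.1 at 3 h, 21.3, 26.7 and 26.3 at 6 h and 16.2, 15.8 and 15.2 at 24 h, and in Aim2-/- cells at 22.7, 14.9 and 24.1 at 0 h, 22.9, 18.7 and 33.6 at 3 h, 26.1, 21.6 and 33.8 at 6 h and 20.5, 12.7 and 19.1 at 24 h. Aim2-/- mouse 2 was the lowest of its genotype at each time. The change of Bcl2a1b was called in WT-labelled cells at 6 h (0.75 ± 0.23, adjusted p = 0.00841) and from 6 to 24 h in both genotypes (-0.66 ± 0.23 and -0.64 ± 0.23, adjusted p = 0.018 and 0.0212). The first call was lost without WT-labelled mouse 3 or 4 (adjusted p = 0.0912 and 0.0756), and so was the fall from 6 to 24 h in these cells (0.0979 and 0.0905), while in Aim2-/- cells that fall was lost without mouse 4 (0.0872). With mouse as a block, 2 further changes passed, 0.54 ± 0.14 at 3 h in WT-labelled cells (adjusted p = 0.00323, without the block 0.0731) and 0.41 ± 0.13 at 6 h in Aim2-/- cells (adjusted p = 0.0121, without the block 0.142). Bcl2a1d in WT-labelled cells was at 8.85, 7.13 and 8.41 CPM at 0 h and 5.06, 4.37 and 6.41 at 24 h, and in Aim2-/- cells at 13.5, 9.94 and 12.2 at 0 h and 8.41, 4.58 and 6.82 at 24 h. All 6 mice were lower at 24 h, with changes of -0.62 ± 0.23 and -0.85 ± 0.23 on the log2 scale (adjusted p = 0.0209 and 0.0025). The WT-labelled call was lost without mouse 1 or 3 (adjusted p = 0.114 and 0.0644). Both calls at 24 h also ended when the rows of all Bcl2a1 genes were summed. The sum changed by -0.11 ± 0.21 in WT-labelled and -0.40 ± 0.21 in Aim2-/- cells at 24 h (adjusted p = 0.663 and 0.0903), and by 0.53 ± 0.21 at 6 h in WT-labelled cells (adjusted p = 0.0396).

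Bax, the pore-forming member, rose to a peak at 6 h and stayed above its starting level. It was at 56.5, 77.8 and 71.1 CPM at 0 h, 110.2, 132 and 102 at 3 h, 127, 202 and 163 at 6 h and 124, 124 and 130.3 at 24 h in WT-labelled cells, and at 72.2, 67.1 and 80.7 at 0 h, 96.1, 103 and 122 at 3 h, 137, 151 and 186 at 6 h and 137, 125 and 150.2 at 24 h in Aim2-/- cells. All 6 mice were higher at 3, 6 and 24 h than at 0 h, and all 6 were lower at 24 h than at 6 h. The log2 change from 0 h was 0.75 ± 0.15, 1.26 ± 0.15 and 0.88 ± 0.15 in WT-labelled cells (adjusted p = 0.000722, 7.05e-07 and 3.07e-05) and 0.54 ± 0.15, 1.11 ± 0.15 and 0.90 ± 0.15 in Aim2-/- cells (adjusted p = 0.00987, 4.65e-06 and 2.33e-05). The Aim2-/- call at 3 h was lost without mouse 2 or 4 (adjusted p = 0.0764 and 0.0546). From 6 to 24 h the change was -0.38 ± 0.15 in WT-labelled cells (adjusted p = 0.0381), a call lost without WT-labelled mouse 3 (log2 -0.21, adjusted p = 0.314) or 4 (0.0979) or Aim2-/- mouse 2 (0.0508), and -0.20 ± 0.15 in Aim2-/- cells, which was not called (adjusted p = 0.272). From 3 to 6 h it was 0.52 ± 0.15 and 0.56 ± 0.15 (adjusted p = 0.016 and 0.0107), lost without WT-labelled mouse 3 (0.104) or 4 (0.194) in the former and Aim2-/- mouse 2 (0.0665) or 4 (0.0534) in the latter.

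Of the BH3-only genes, 3 fell and 1 rose. Bcl2l11, encoding BIM, was at 268, 310.0 and 341 CPM at 0 h, 183, 192 and 229 at 3 h, 179, 162 and 200.2 at 6 h and 66.3, 67.5 and 85.1 at 24 h in WT-labelled cells. The Aim2-/- values were 248, 294 and 263 at 0 h, 203, 221 and 187 at 3 h, 159, 172 and 148 at 6 h and 55.6, 69.2 and 60.4 at 24 h. All 6 mice fell at every step, and at 24 h no library overlapped any earlier one. The log2 change was -0.61 ± 0.12, -0.76 ± 0.12 and -2.07 ± 0.13 at 3, 6 and 24 h in WT-labelled cells (adjusted p = 0.000549, 1.98e-05 and 6.27e-12). The Aim2-/- changes were -0.40 ± 0.12, -0.75 ± 0.12 and -2.12 ± 0.13 (adjusted p = 0.0168, 2.92e-05 and 7.03e-12). The Aim2-/- call at 3 h was lost without mouse 2 or 4 (adjusted p = 0.0594 and 0.143) and with library totals alone (log2 -0.28, adjusted p = 0.0659). From 3 to 6 h the Aim2-/- change of -0.35 ± 0.12 (adjusted p = 0.0401) lost its call without WT-labelled mouse 3 (0.0571) or any of Aim2-/- mice 1, 2 and 4 (0.13, 0.115 and 0.149).

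Bbc3, encoding PUMA, a classical p53 target, was at 22.9, 27.2 and 29.5 CPM at 0 h, 12.3, 12.6 and 10.6 at 3 h, 12.0, 15.4 and 13.3 at 6 h and 4.86, 3.95 and 5.75 at 24 h in WT-labelled cells and at 24.7, 21.9 and 25.6 at 0 h, 15.4, 8.16 and 10.4 at 3 h, 21.9, 11.0 and 15.8 at 6 h and 6.89, 3.07 and 5.38 at 24 h in Aim2-/- cells. It was lower than at 0 h in all 6 mice at each later time, with the 24 h values below all others. The log2 change at 3 and 24 h was -1.16 ± 0.26 and -2.45 ± 0.27 in WT-labelled cells (adjusted p = 0.00137 and 6.47e-08) and -1.09 ± 0.26 and -2.23 ± 0.27 in Aim2-/- cells (adjusted p = 0.00276 and 2.54e-07). The Aim2-/- call at 3 h was lost without mouse 4 (adjusted p = 0.0629). At 6 h the change was -0.97 ± 0.26 in WT-labelled cells (adjusted p = 0.00317) and -0.57 ± 0.25 in Aim2-/- cells (adjusted p = 0.067), which passed with mouse as a block (-0.63 ± 0.15, adjusted p = 0.00141). With the block the partial return from 3 to 6 h in Aim2-/- cells also passed (0.51 ± 0.16, adjusted p = 0.0156, without it 0.158).

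Pmaip1, encoding NOXA, the BH3-only partner of MCL1, lies on chromosome 18. It was at 61.1, 31.6 and 40.7 CPM at 0 h, 40.9, 16.9 and 27.9 at 3 h, 26.8, 13.5 and 18.5 at 6 h and 7.65, 6.16 and 8.21 at 24 h in WT-labelled cells and at 97.5, 56.9 and 80.0 at 0 h, 62.6, 33.0 and 43.1 at 3 h, 55.7, 32.4 and 37.2 at 6 h and 17.0, 8.81 and 10.3 at 24 h in Aim2-/- cells. All 6 mice fell at every step, and within a genotype the mice kept wide distances, with mouse 1 highest at 0, 3 and 6 h in both. The change was -1.18 ± 0.34 and -2.60 ± 0.37 at 6 and 24 h in WT-labelled cells (adjusted p = 0.00627 and 1.9e-06) and -0.90 ± 0.33 and -2.70 ± 0.36 in Aim2-/- cells (adjusted p = 0.0283 and 9.3e-07). The Aim2-/- call at 6 h was lost without mouse 2 or 4 (adjusted p = 0.0573 and 0.169) and with library totals alone (log2 -0.78, adjusted p = 0.0716). At 3 h it was -0.64 ± 0.34 and -0.76 ± 0.33 (adjusted p = 0.159 and 0.0928), and with mouse as a block both passed, at -0.66 ± 0.12 and -0.77 ± 0.11 (adjusted p = 8e-05 and 1.17e-05), as did the step from 3 to 6 h in WT-labelled cells (-0.52 ± 0.12, adjusted p = 0.00169, without the block 0.274). At 0 h the plasma cell markers of the same mice summed to 1032, 151 and 206 CPM (WT-labelled) and 2944, 1716 and 2945 CPM (Aim2-/-). The neutrophil markers summed to 25.5, 26.7 and 27.1 CPM and to 289, 104 and 132 CPM. The part of other cells in the Pmaip1 values was not tested.

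Bad, whose protein is held inactive by phosphorylation downstream of growth signals, was the lowest of the 10 genes per kilobase at 0, 3 and 6 h and rose late. It was at 7.95, 8.21 and 9.02 CPM at 0 h, 9.81, 6.47 and 7.10 at 3 h, 7.80, 5.50 and 7.79 at 6 h and 16.7, 17.7 and 18.5 at 24 h in WT-labelled cells, and at 8.52, 7.33 and 9.10 at 0 h, 11.4, 9.16 and 9.60 at 3 h, 12.2, 10.5 and 11.3 at 6 h and 15.8, 17.3 and 17.8 at 24 h in Aim2-/- cells. Every 24 h value lay above every earlier one. The log2 change at 24 h was 1.07 ± 0.16 in WT-labelled and 1.03 ± 0.16 in Aim2-/- cells (adjusted p = 3.96e-06 and 7.15e-06). At 6 h the change in Aim2-/- cells was 0.45 ± 0.16 (adjusted p = 0.0229), a call lost without any of the Aim2-/- mice 1, 2 and 4 (adjusted p = 0.104, 0.101 and 0.0622) or WT-labelled mouse 4 (0.0575), and in WT-labelled cells it was -0.26 ± 0.16 (adjusted p = 0.196).

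**Figure D2:**
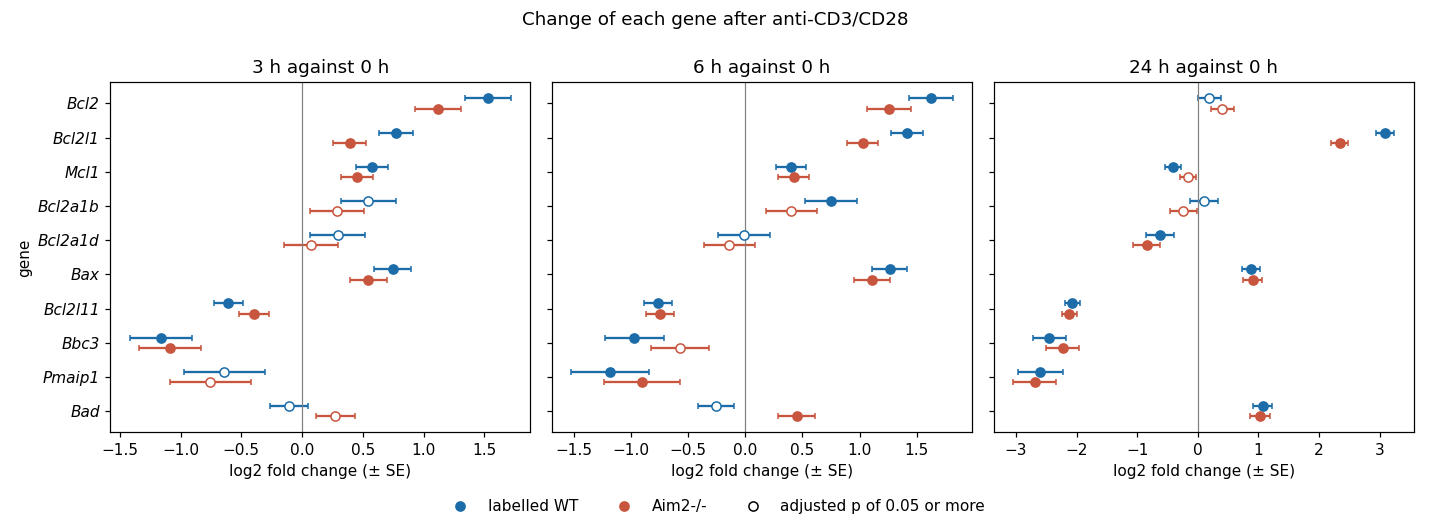
Log2 fold change of each gene at 3, 6 and 24 h against 0 h (points, with bars for the standard error of the fit over 3 mice) in WT-labelled and Aim2-/- cells, open where the adjusted p was 0.05 or more. At 24 h Bcl2l1 stands apart on the right, at 3.10 and 2.34, and Bcl2l11, Bbc3 and Pmaip1 lie between -2.07 and -2.70 on the left.

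Levels of different genes were compared per kilobase of exon, as CPM per kb. The places of Bcl2a1b and Bcl2a1d are uncertain, because most of their sequence is shared with other genes. At 0 h the order in WT-labelled cells was Mcl1 (191 ± 6.43, SD, n = 3), Bax (43.4 ± 6.92), Bcl2l11 (38.2 ± 4.61), Bcl2a1b (18.0 ± 0.707), Pmaip1 (16.3 ± 5.53), Bbc3 (12.5 ± 1.57), Bcl2 (10.7 ± 0.702), Bcl2a1d (9.42 ± 1.04), Bcl2l1 (9.27 ± 0.540) and Bad (3.28 ± 0.219). Only Mcl1 stood clear of Bax, Bcl2l11 of Bcl2a1b and Bcl2l1 of Bad, while the ranges of all other neighbours overlapped. By 24 h Mcl1 (143 ± 8.21) was followed by Bax (80.0 ± 2.34) and Bcl2l1 (79.4 ± 0.782), whose ranges overlapped, and Bcl2l11 (9.09 ± 1.31) had moved to the sixth place. At 24 h the Aim2-/- order was Mcl1 (155 ± 12.9), Bax (87.1 ± 8.03), Bcl2l1 (76.0 ± 2.43), Bcl2a1b (21.3 ± 5.05) and Bcl2 (13.4 ± 0.454), with no overlap between these neighbours. The ratio of Bcl2l1 to Bcl2l11 within a library, both per kb, at 0, 3, 6 and 24 h was 0.246 ± 0.0358, 0.640 ± 0.142, 1.10 ± 0.0793 and 8.84 ± 1.10 in WT-labelled cells (SD, n = 3). For Aim2-/- cells it was 0.456 ± 0.115, 0.788 ± 0.227, 1.55 ± 0.294 and 9.99 ± 1.27. The ratio passed 1 between 3 and 6 h in all 3 WT-labelled mice, and in Aim2-/- cells its 3 h range reached 1.01.

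Of the summed level of the 5 pro-survival genes, per kb, Mcl1 made up 80.1% ± 1.17 in WT-labelled and 73.0% ± 4.47 in Aim2-/- cells at 0 h, and 55.0% ± 0.802 and 56.7% ± 0.175 at 24 h (SD, n = 3). Bcl2l1 went from 3.89% ± 0.291 and 6.33% ± 1.22 at 0 h to 30.5% ± 1.01 and 27.9% ± 1.69 at 24 h. Bcl2 held 4.50% ± 0.341 and 4.28% ± 0.664 at 0 h and was highest at 6 h, at 9.42% ± 0.868 and 7.23% ± 0.974. Shares depend on the length assigned to a gene. They also depend on the A1 values, which are uncertain because most of their sequence is shared with other genes. How reads that match several genes were counted was not examined, so the shares of all pro-survival genes carry this uncertainty. If such reads were left out, the A1 levels would be too low and the shares of Mcl1, Bcl2l1 and Bcl2 too high. With the longest transcript in place of all exons, Bcl2l1 reached 43.5% and 40.4% at 24 h, close to Mcl1 at 43.9% and 46.0%.

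**Figure D3:**
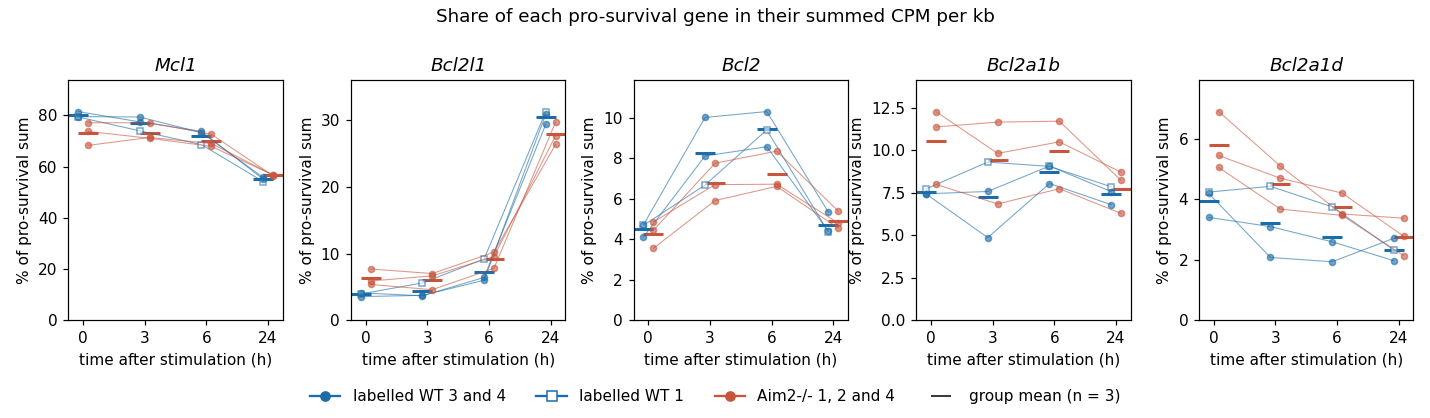
Share of each pro-survival gene in the summed CPM per kb of the 5 genes (percent, each axis from 0) in every library against time (h, evenly spaced), with 1 line for each mouse and a bar for the mean of 3 mice. The share of Bcl2l1 rises from 3.89% and 6.33% to 30.5% and 27.9% between 0 and 24 h as that of Mcl1 falls. All shares carry the uncertainty of the A1 values.

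Between the genotypes, 1 of the 10 genes was called at 0 h (10%, beside 5.23% of all tested genes). At 6 h 2 were called (20%, background 15.8%), all higher in Aim2-/- cells. These counts are too small to set the 10 genes apart from all tested genes. At 3 h none was called by edgeR, DESeq2 or limma-voom, which called 45 (background 0.294%), 312 and 63 of all genes. At an unadjusted edgeR p under 0.05 there were 3 (Bcl2, Bcl2l1 and Bad), beside 2350 of all 15325 genes. At 24 h none was called by these tools, beside 102 (background 0.666%), 783 and 5 of all genes. There 0 had an unadjusted edgeR p under 0.05, beside 3134 of all genes. The median difference of the 10 genes was 0.04, 0.12, 0.20 and 0.12 at 0, 3, 6 and 24 h, beside -0.01, 0.00, 0.05 and 0.01 over all tested genes.

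Bcl2l1 was higher in resting Aim2-/- cells, at 56.3 to 80.0 against 39.7 to 44.0 CPM, with no overlap. The log2 difference was 0.69 ± 0.14 (SE, n = 3, adjusted p = 0.0117). Without the mouse labelled WT 1 it was 0.72 (adjusted p = 0.0185), and the call was lost without WT-labelled mouse 3 (0.61, adjusted p = 0.112), WT-labelled mouse 4 (0.69, 0.0805) or Aim2-/- mouse 1 (0.58, 0.0959). The difference was 0.32 ± 0.14 at 3 h and 0.31 ± 0.14 at 6 h (adjusted p = 0.282 and 0.119), which passed the threshold without Aim2-/- mouse 2 (0.46 and 0.39, adjusted p = 0.023 and 0.0162). Without the mouse labelled WT 1 it was 0.43 at 3 h and 0.36 at 6 h (adjusted p = 0.15 and 0.133). It fell to 0.17 at 3 h without Aim2-/- mouse 4 (adjusted p = 0.683) and to 0.18 at 6 h without WT-labelled mouse 3 (adjusted p = 0.47). At 24 h the Aim2-/- libraries lay below, at 338 to 360.1 against 361 to 368 CPM. The fitted rise over 24 h was smaller in Aim2-/- cells, with an interaction of -0.76 ± 0.20 (adjusted p = 0.133) that passed with mouse as a block (-0.75 ± 0.13, adjusted p = 0.00833). Without the mouse labelled WT 1 and without the block it was -0.79 (adjusted p = 0.152), and without Aim2-/- mouse 2 it passed (-0.86, adjusted p = 0.0257). The marker sums of basophils, neutrophils, myeloid, B and plasma cells given above were also higher in the Aim2-/- libraries at 0 h. Of the Aim2-/- mice, mouse 2 had the lowest of each of these sums at 0 h (53.3, 104, 102, 16.2 and 1716 CPM in that order). It also had the lowest Bcl2l1 level of its genotype at 0 h (56.3 CPM). The part of these cells in the Bcl2l1 difference was not tested.

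Pmaip1 and Bad were higher in Aim2-/- cells at 6 h. Pmaip1 stood at 32.4 to 55.7 against 13.5 to 26.8 CPM, a log2 difference of 1.09 ± 0.34 (adjusted p = 0.0381), and without the mouse labelled WT 1 at 1.38 (adjusted p = 0.0221). The call was lost without WT-labelled mouse 3 (adjusted p = 0.136) or 4 (0.16) and without Aim2-/- mouse 1 (0.147) or 4 (0.0955). At 0, 3 and 24 h the fitted difference was 0.81 ± 0.33, 0.70 ± 0.34 and 0.72 ± 0.37 (adjusted p = 0.143, 0.327 and 0.275). With 1 mouse left out it ranged from 0.58 (without WT-labelled mouse 3) to 1.11 (without WT 1) at 0 h, from 0.40 to 1.05 (the same mice) at 3 h, and from 0.38 (without Aim2-/- mouse 1) to 0.90 (without Aim2-/- mouse 2) at 24 h. Bad stood at 10.5 to 12.2 against 5.50 to 7.80 CPM at 6 h, a log2 difference of 0.69 ± 0.16 (adjusted p = 0.0125), and without the mouse labelled WT 1 at 0.77 (adjusted p = 0.0136). This call was lost without WT-labelled mouse 3 (0.50, adjusted p = 0.0989) or 4 (0.0619) and without Aim2-/- mouse 1 (0.0701) or 4 (0.0562). Both calls also ended when only the 6 libraries of 6 h were fitted (adjusted p = 0.0548 for Pmaip1 and 0.0639 for Bad). At 6 h the basophil and mast cell markers summed to 9.20 to 16.5 CPM in WT-labelled and 70.6 to 145 CPM in Aim2-/- libraries, the plasma cell markers to 115 to 1068 against 1594 to 2564 CPM, the neutrophil markers to 8.32 to 17.1 against 47.2 to 184 CPM, the myeloid markers to 21.8 to 48.7 against 60.6 to 189 CPM and the B cell markers to 7.01 to 11.9 against 15.9 to 46.4 CPM, and their part in these differences was not tested.

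Bcl2 was lower in the fitted values of Aim2-/- cells at 3 h (-0.50 ± 0.19) and 6 h (-0.45 ± 0.19), where the ranges of the genotypes overlapped (adjusted p = 0.224 and 0.0919). Without the mouse labelled WT 1, whose Bcl2 level was the lowest of its group at both times, the differences were -0.70 and -0.58 and passed (adjusted p = 0.0363 and 0.0371), and that at 6 h also passed without Aim2-/- mouse 2 (-0.60, adjusted p = 0.0469). Without WT-labelled mouse 4, the highest of its group, they were -0.26 and -0.31 (adjusted p = 0.713 and 0.247). The A1 genes at 0 h were at 14.1 to 15.2 and 14.9 to 24.1 CPM for Bcl2a1b and at 7.13 to 8.85 and 9.94 to 13.5 CPM for Bcl2a1d in WT-labelled and Aim2-/- cells, without a call.

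**Figure D4:**
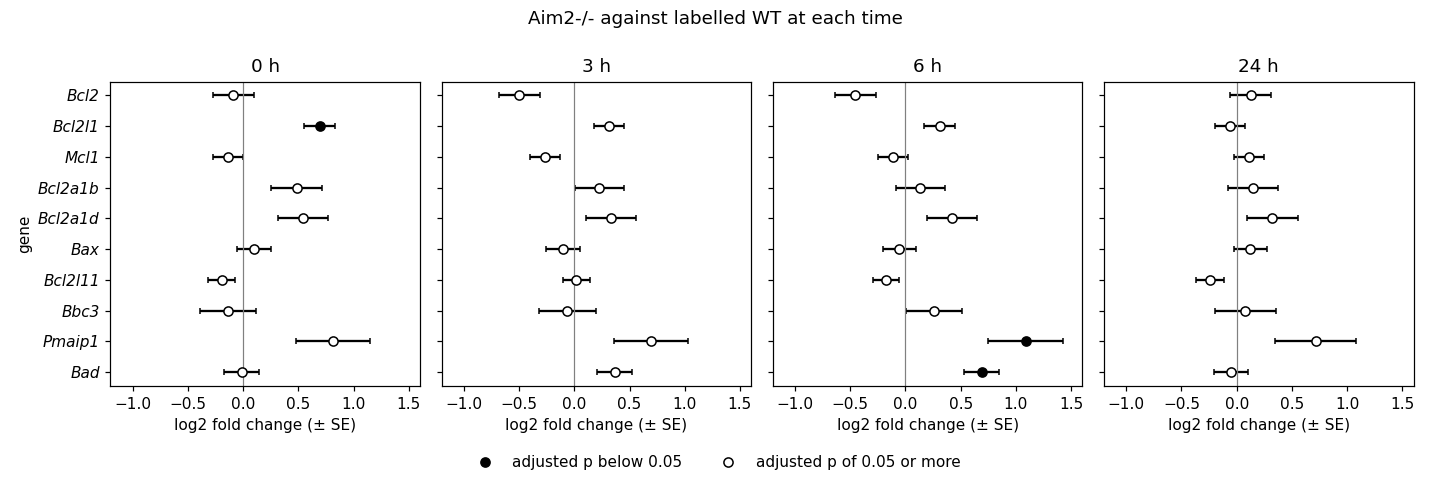
Log2 difference of Aim2-/- against WT-labelled cells for each gene at 0, 3, 6 and 24 h (points, with bars for the standard error of the fit over 3 mice in each group), filled where the adjusted p was below 0.05. Bcl2l1 at 0 h (0.69) and Pmaip1 (1.09) and Bad (0.69) at 6 h are the filled points.

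Without mouse as a block, none of the 10 genes had a called interaction of genotype and stimulation at 3, 6 or 24 h by edgeR, where 0%, 0.0261% and 0% of all tested genes were called. At an unadjusted p under 0.05 there were 0, 1 and 1 of the 10 genes (Bad at 6 h and Bcl2l1 at 24 h), beside 653, 2019 and 1825 of all genes. DESeq2 called 0, 0 and 1 of the 10 (0, 304 and 186 of all genes), and limma-voom 0 at each time (0, 2 and 2 of all genes). For Bcl2l1 the edgeR interaction at 24 h was -0.76 (adjusted p = 0.133), and with mouse as a block it passed, at -0.75 ± 0.13 (adjusted p = 0.00833). For Bad the interaction at 6 h was 0.70 ± 0.23 (adjusted p = 0.178), and with mouse as a block it passed narrowly, at 0.71 ± 0.21 (adjusted p = 0.0499). The level of Bad at 6 h was below that at 0 h in 3 of 3 WT-labelled mice and above it in 3 of 3 Aim2-/- mice.

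Among 16 other genes of the family, 13 were tested (Bcl2l10, Bok and Hrk were not), and 8 were called at 24 h against 0 h in WT-labelled cells, 5 higher and 3 lower (61.5%, beside 71.4% of all tested genes). The largest called rises were those of Bid, the BH3-only link to death receptors, at 1.85 ± 0.13 (adjusted p = 4.34e-11), and of Bcl2l2, which encodes the pro-survival BCL-W, at 1.47 ± 0.31 (adjusted p = 0.000263). The largest falls were those of Bmf, a BH3-only gene, at -3.61 ± 0.58 (adjusted p = 1.06e-05), and of Bcl2l15 at -2.64 ± 0.59 (adjusted p = 0.000427). The same changes in Aim2-/- cells were 1.59 ± 0.13, 0.89 ± 0.30, -3.25 ± 0.54 and -1.48 ± 0.49, each called (adjusted p = 4.7e-10, 0.0131, 1.89e-05 and 0.0109), within 9 calls of 13 (5 higher, 4 lower, 69.2% beside 70.3%). The median log2 change at 24 h was 0.57 in WT-labelled and 0.23 in Aim2-/- cells, beside -0.01 and 0.03 over all tested genes, the medians to set beside those of the lists that follow as well. Bak1, the pore-forming partner of Bax, was higher in Aim2-/- cells at 0 h (0.40 ± 0.08, adjusted p = 0.00889) and 6 h (0.32 ± 0.08, adjusted p = 0.0139), as was Bcl2l12 at 6 h (0.38 ± 0.12, adjusted p = 0.0378).

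Next come the genes that act around and after pore formation. Of 21 genes of the apoptosome, caspases, their inhibitors and the channels of the outer membrane, 19 were called at 24 h in WT-labelled cells (12 higher, 7 lower, 90.5% beside 71.4% of all tested genes) and 19 in Aim2-/- cells (12 higher, 7 lower, 90.5% beside 70.3%), with a median log2 change of 1.13 and 0.71. Birc5, encoding survivin, which also acts in mitosis, rose by 4.60 ± 0.43 (adjusted p = 4.85e-09) and Endog, a mitochondrial nuclease, by 2.24 ± 0.18 (adjusted p = 5.13e-10). The ubiquitin ligase genes Birc2 and Birc3 changed by -2.20 ± 0.11 and -1.41 ± 0.11 (adjusted p = 4.42e-13 and 1.33e-10). Between the genotypes, Cflar, the inhibitor of caspase-8, was lower in Aim2-/- cells at 0 h (-0.40 ± 0.08, adjusted p = 0.0149) and 6 h (-0.39 ± 0.08, adjusted p = 0.0105). Htra2, a mitochondrial protease, was higher in Aim2-/- cells at 6 h (0.76 ± 0.12, adjusted p = 0.00349), as was Birc5 (1.28 ± 0.40, adjusted p = 0.0375).

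Since Bbc3, Pmaip1 and Bax are classical p53 targets, Trp53 and 14 of its regulators and targets were followed as well, of which all but Eda2r were tested. At 24 h in WT-labelled cells 11 of 14 were called, 4 higher and 7 lower (78.6%, beside 71.4% of all tested genes), with a median of -0.30, and in Aim2-/- cells 9 of 14 (3 higher, 6 lower, 64.3% beside 70.3%, median -0.35). Phlda3 and Aen rose most (2.33 ± 0.29 and 2.14 ± 0.16, adjusted p = 3.9e-07 and 9.21e-11), and Trp53inp1 and Btg2 fell most (-3.92 ± 0.21 and -3.16 ± 0.15, adjusted p = 1.14e-12 and 2.33e-13). Members of this list were thus called in both directions. Mdm4 and Sesn1 were lower in Aim2-/- cells at 0 h (-0.44 ± 0.11 and -0.50 ± 0.11, adjusted p = 0.0336 and 0.0179), and Ccng1, Zmat3, Aen and Tnfrsf10b at 6 h (-0.31 ± 0.10, -0.44 ± 0.12, -0.52 ± 0.15 and -0.79 ± 0.21, adjusted p = 0.0435, 0.0211, 0.0275 and 0.0212).

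Of 15 regulators of the MCL1, BIM and BAD proteins, 12 were called at 24 h in each genotype, 5 higher and 7 lower (80%, beside 71.4% and 70.3% of all tested genes), with medians of -0.20 and -0.15. Pim2, a kinase that phosphorylates BAD, rose by 2.57 ± 0.16 (adjusted p = 5.29e-12) and Dynll2, a dynein light chain that binds BMF, by 1.71 ± 0.09 (adjusted p = 3.95e-13). The largest falls were those of Foxo1, a transcription factor known to activate Bcl2l11 in resting lymphocytes, at -1.99 ± 0.09 (adjusted p = 7.91e-14), and of Usp9x, a deubiquitinase of MCL1, at -1.64 ± 0.28 (adjusted p = 1.86e-05). Huwe1, a ubiquitin ligase of MCL1, and Usp9x were lower in Aim2-/- cells at 6 h (-0.55 ± 0.14 and -1.08 ± 0.27, adjusted p = 0.0168 and 0.0173). At 0 h the genotype calls made up 7.69%, 9.52%, 14.3% and 0% of the 4 lists in the order given here, beside 5.23% of all tested genes. At 6 h they made up 15.4%, 19%, 28.6% and 13.3%, beside 15.8%. No gene of the lists was called at 3 or 24 h (background 0.294% and 0.666%). Over the 4 lists, 16 of the 17 calls between the genotypes were lost on leaving out at least 1 of the 6 mice, the exception being Htra2 at 6 h. The Aim2-/- libraries carry the marker differences given above, whose part was not tested.

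No gene of the 4 lists had a called interaction of genotype and stimulation without the block. With mouse as a block, Pim2 passed at 3 h (-0.74 ± 0.14, adjusted p = 0.0498), Bcl2l12, Htra2 and Sesn1 at 6 h (0.54 ± 0.15, 0.64 ± 0.13 and 0.62 ± 0.14, adjusted p = 0.0489, 0.012 and 0.0171) and Mdm4 and Sesn1 at 24 h (0.68 ± 0.16 and 0.61 ± 0.14, adjusted p = 0.0258 and 0.0248).

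As a description, the genes whose log2 CPM over the 24 libraries ran closest to a member were found by Pearson's r, over points that share mice and times. For Bcl2l1 they were Ap1s1 (0.995), Gsr (0.990) and Slco4a1 (0.989). For Bcl2 they were Rragd (0.988), Ecm1 (0.977) and Oas2 (0.970), and for Bcl2l11 they were Kdm4b (0.988), Mnt (0.985) and Elf1 (0.985).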

How the data were processed

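Stranded mRNA libraries were made from splenic CD4+ T cells at 0, 3, 6 and 24 h of stimulation. Per the labels and the submitters' processing notes, the authors aligned reads with STAR to GRCm38 and deposited raw counts per Ensembl gene, without normalization. Strand use in counting is not given in the sources used here, so antisense and overlapping genes are uncertain (Bax also shares exon sequence with Gm45808). Symbols and lengths came from GENCODE annotation of that build, which matched 54409 of 54446 identifiers. Counts were tested with edgeR 4.0.16 in R 4.3.3 (quasi-likelihood, two-sided, TMM, filterByExpr with a minimum count of 10, 1 mean per group over 24 libraries, Benjamini-Hochberg adjustment over 15325 genes). The code was run on counts simulated without mouse effects and with few changed genes. That run cannot show how the test behaves when libraries share a mouse or when most genes change. Log2 CPM used a prior count of 2. Replicates are mice per the labels.

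Library numbers pair by mouse: 36 same-mouse pairs of libraries correlated in their deviations from group means at 0.139 to 0.567, all above 0.1, and 72 pairs of different mice of a genotype at -0.432 to 0.0742. Blocked values stand beside results whose call they change.

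Alternatives were RLE factors, library totals, no filter, a minimum mean of 1 CPM, only the groups compared, mouse as a block, each mouse left out, limma-voom (limma 3.58.1), DESeq2 1.42.0, summed Bcl2a1 rows and longest-transcript lengths. Named genes are the 10 members, Aim2, the 2 largest called rises and falls at 24 h in WT-labelled cells of each list, genes called between genotypes and the 3 closest patterns of 3 members. Genes with interactions called only under the block were named after their values were seen. Members and lists were chosen with earlier results of these data known. The values of 1 gene that this rule names are not reported here, though list counts include it.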

Additional observations from a re-analysis of the deposited data

Results flagged for a closer look

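Bad at 6 h was below its 0 h level in 3 of 3 WT-labelled mice and above it in 3 of 3 Aim2-/- mice, with an interaction of 0.70 ± 0.23 on the log2 scale (SE, adjusted p = 0.178 by edgeR, 0.0499 with mouse as a block). Without the mouse labelled WT 1 the interaction was 0.82 (adjusted p = 0.179). Bcl2a1b at 24 h was above its 0 h level in 3 of 3 WT-labelled mice, at 16.2, 15.8 and 15.2 against 15.2, 14.7 and 14.1 CPM in mice 1, 3 and 4, and below it in 3 of 3 Aim2-/- mice, at 20.5, 12.7 and 19.1 against 22.7, 14.9 and 24.1 CPM in mice 1, 2 and 4. The interaction of -0.33 ± 0.32 did not pass (adjusted p = 0.72), and with the rows of all Bcl2a1 genes summed it was -0.30 ± 0.30 (adjusted p = 0.732). These flags came from searching the members at 3, 6 and 24 h for opposite directions in all mice of the genotypes. How often such a pattern occurs over all tested genes was not counted.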

How the results depend on the processing

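No called change of a member reversed its direction under any alternative run, whereas some changes that were not called did. Of 42 calls against 0 h, 29 kept their call in every alternative, of 24 calls between consecutive times 14, and of the 3 between the genotypes 0. Without a filter on low counts, 2 members were called between the genotypes at 0 h, 2 at 3 h and 1 for the interaction at 24 h. Fitting only the groups compared gave 1 call at 6 h against 3 h in WT-labelled and 0 in Aim2-/- cells, and 0 between the genotypes at 6 h. With mouse as a replicate block, 10 results of members that were not called passed the threshold, among them 1 interaction at 6 h and 1 at 24 h. Each is given with its blocked value in the report, and no other call of a member changed. DESeq2 called 1 interaction at 24 h, beside 186 of all genes. No paired test of the genotypes was possible because each mouse has 1 genotype. With 1 mouse left out at a time, members called numbered 0 to 2 at 6 h against 3 h in WT-labelled cells, 1 to 6 at 3 h, 4 to 7 at 6 h and 1 to 3 at 6 h against 3 h in Aim2-/- cells, 0 to 2 between the genotypes at 0 h, 0 to 1 at 3 h and 0 to 4 at 6 h, and 0 to 1 for the interaction at 24 h. For each of these changes the cause was not tested. Calls over all tested genes were not counted in the fits without a filter, of only the groups compared, with the block or with mice left out. The member counts of these fits therefore cannot be read against a background. With 3 mice per group, differences of single genes between the genotypes rest on few mice, and reads of the A1 paralogs cannot be fully separated.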
